A study of Mus musculus with 14 samples.

Results

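The genes described here are 36 targets of the transcriptional co-activators YAP and TAZ, followed through every group of a bulk RNA-sequencing experiment on mouse liver. They were taken as a written list of gene names, which takes in targets that the study displayed in a heat map of these same libraries, though not all of them, so that their direction is not independent evidence. All 36 were found among the 55427 genes of the table, and 27 of them passed the filter on low values that left 12110 genes for testing. The other 9, which were Tgfb2, Slit2, Fjx1, Ptpn14, Arhgef17, Asap1, Dab2, Ankrd1 and Rbms3, are given by their levels. Bicc1 passed through the 3 HiAD livers only, so that it had to be high in that group to be tested at all. The counts below include it in every comparison with HiAD livers and among the members highest there.

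Livers came from male mice on a C57B6 background, all carrying a RAGE flox allele, which were 8 to 10 weeks old when feeding started and were fed for 14 weeks. The high-AGE diet (HiAD) was the fast-food diet (FFD) after cooking, which raises advanced glycation end-products (AGEs), and both came with high-fructose drinking water. There were 2 libraries from mice on the HiAD given pyridoxamine (PM, an inhibitor of AGE formation) at 60 mg per kg by daily intraperitoneal injection. A further 3 came from HiAD mice labelled RAGE hepKO (RAGE flox with Alb cre, a recombinase driven by the hepatocyte albumin promoter). The paper describes this as a deletion of the AGE receptor RAGE specific to hepatocytes. The remaining groups were the HiAD, the FFD and regular chow, with 3 libraries each. The paper's figure legend describes the HiAD group as treated with vehicle. Each library is taken as 1 mouse. The labels do not say how cages or litters were spread over the groups, so p-values measure only the spread between these libraries.

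YAP and TAZ (the product of Wwtr1) are carried into the nucleus when cells spread, pull on a stiff or stressed matrix or lose contact with neighbours, and there they bind TEAD factors at the promoters and enhancers of their targets. The kinases of the Hippo pathway hold them in the cytoplasm. Many of their targets are matricellular proteins, membrane receptors and cytoskeletal regulators, and several, such as Lats2, Amotl2, Ajuba and Ptpn14, act back on YAP itself. In liver the pathway is known for its part in organ size, in the identity of bile duct cells and in the activation of stellate cells.

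Values are given as scaled FPKM, the deposited FPKM (fragments normalised to exon length and to the library total) divided by a factor for each library. Differences are on the scale of log2(scaled FPKM + 1), which understates the change of low genes, with the standard error from limma and p-values adjusted over all 12110 genes. A member is said to have risen or fallen at an adjusted p under 0.05. Read depth is unknown. Mitochondrial genes held 24.3% to 53.1% of all FPKM in the libraries labelled RAGE hepKO, against 14.1% to 22.1% in the other HiAD livers, and held 6.06% to 10.1% in FFD livers. The libraries RAGE hepKO RA19 and chow R2 stood apart. RAGE hepKO RA19 held the highest mitochondrial share, 53.1%, and chow R2 had 18.7 scaled FPKM of Egr1 and 81.3 of Btg2, immediate early genes that reached at most 5.74 and 10.6 in the other 13. Ager, the gene of RAGE, had 2.75 and 2.49 in HiAD plus PM livers, 0.198, 1.90 and 1.83 in libraries labelled RAGE hepKO, 0.184, 0.0811 and 0.140 in HiAD livers, 2.78, 2.68 and 2.47 in FFD livers and 1.71, 2.15 and 0.801 in chow livers. It was thus lower in the floxed HiAD livers than in the libraries labelled as lacking it in hepatocytes, which goes against the labels. The HiAD livers lay below every other floxed library too. Whether a label is at fault was not tested. Directions drawn from the libraries labelled RAGE hepKO rest on that label. Those drawn from the HiAD livers, against FFD, chow and PM livers too, rest on the HiAD label. The summed level of 10 hepatocyte markers, 20736 to 40603 in all 14 libraries, matched the tissue label.

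Upstream sequence was at hand for 26 of the 36 members, as RefSeq start sites on GRCm38.p6. The letters GGAATG, the core that TEAD factors bind, were sought on both strands in the 250 bases before each start. They occurred in at least 1 window of 9 of these 26 members (34.6%). These were Ccn1, Axl, Crim1, Amotl2, Ajuba, Ptpn14, Ankrd1 and, at 1 of several start sites each, Pmp22 and Sgk1. Of all 27025 genes with such windows 14.4% had a match. By window it was 23.7% of the 38 windows of members, against 12.6% of all 32851 windows. The letters TGANTCA, read by AP-1, a frequent partner of TEAD, were found in 1 member only, F3, with 2 matches. That is 3.85% of the 26 members, against 7.82% of all genes. By window it was 2.63% of the windows of members, against 6.75% of all windows. No window of a member held both motifs. A match here is a run of letters and not a shown binding site. The windows of Ccn1, Ajuba and Ptpn14, which hold no exon of the GENCODE annotation, are printed 5′ to 3′ on the strand of the gene because they carry the matches of the best known target and of a pair of feedback genes whose levels are given below, with the match (GGAATG, or CATTCC where it lies on the opposite strand) in capitals. For Ankrd1 and Amotl2, whose windows run into an exon of another GENCODE transcript, only the 26 bases around each match are shown.
Ccn1 (chr3:145649986-145650235, minus strand): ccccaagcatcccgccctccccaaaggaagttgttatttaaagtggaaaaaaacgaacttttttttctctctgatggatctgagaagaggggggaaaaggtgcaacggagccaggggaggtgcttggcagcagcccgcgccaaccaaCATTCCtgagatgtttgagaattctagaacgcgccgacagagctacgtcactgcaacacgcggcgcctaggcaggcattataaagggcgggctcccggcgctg
Ajuba (chr14:54577662-54577911, minus strand): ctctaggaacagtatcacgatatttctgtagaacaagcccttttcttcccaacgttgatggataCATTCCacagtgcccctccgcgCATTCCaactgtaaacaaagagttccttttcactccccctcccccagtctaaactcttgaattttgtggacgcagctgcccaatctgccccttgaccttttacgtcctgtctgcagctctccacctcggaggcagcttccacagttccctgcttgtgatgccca
Ptpn14 (chr1:189728018-189728267, plus strand): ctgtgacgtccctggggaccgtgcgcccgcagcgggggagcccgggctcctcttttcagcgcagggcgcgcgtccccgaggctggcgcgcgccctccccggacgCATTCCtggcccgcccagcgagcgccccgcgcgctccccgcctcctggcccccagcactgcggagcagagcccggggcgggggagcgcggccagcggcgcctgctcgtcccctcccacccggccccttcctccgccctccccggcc
Ankrd1, first match (chr19:36120039-36120064, minus strand): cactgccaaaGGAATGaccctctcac
Ankrd1, second match (chr19:36119952-36119977, minus strand): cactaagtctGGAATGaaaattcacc
Amotl2 (chr9:102717729-102717754, plus strand): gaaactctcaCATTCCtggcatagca
The single match of Ccn1 lies 98 to 103 bases before its start, that of Ptpn14 141 to 146 and that of Amotl2 60 to 65. Ajuba carries its matches at 159 to 164 and at 181 to 186 bases, and Ankrd1 at 118 to 123 and at 205 to 210. Of the 6 members that rose on the HiAD against the FFD, Nt5e, Ddah1 and Fstl1 have a window in the table and none holds the letters; Ccn2, Bicc1 and Sh2d4a were not searched.

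A subset of the targets was higher on the cooked diet. In HiAD against FFD livers 6 of the 27 tested members rose, namely Ccn2, Bicc1, Sh2d4a, Nt5e, Ddah1 and Fstl1, and none fell. That is 22.2% of the members, against 1.66% of all genes tested that rose and 1.45% that fell (2.47% and 1.3% at a constant sum without mitochondrial genes). At an unadjusted p under 0.05 the counts were 9 higher and 0 lower, and 1964 of the 12110 genes were under it in either direction. The median difference of the members was 0.36, against 0.020 over all genes tested. Without HiAD B3, FFD R28 or FFD R31 the count of members that rose was 3 each time. The median difference of the members in these runs was 0.43, 0.32 and 0.44.

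With PM, 6 members fell, namely Ccn2, Nt5e, Bicc1, Cdkn2c, Gas6 and Fstl1, and none rose. The share that fell was 22.2%, against 3.14% of all genes tested that fell and 3.31% that rose. At an unadjusted p under 0.05, 10 members were lower and 2, Dlc1 and Gadd45a, were higher. Of all 12110 genes 2429 were under it in either direction. The median difference of the members was -0.38, against 0.0081 over all genes. This comparison has 2 libraries on one side, and every one of its calls leaned on HiAD plus PM R19. Those of Cdkn2c, Gas6 and Fstl1 leaned on HiAD plus PM R18 too, as given below by gene. The median difference of the members was -0.42 without HiAD plus PM R18 and -0.33 without HiAD plus PM R19. Without HiAD B2 the count was 3 lower members, with a median difference of -0.24.

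In the libraries labelled RAGE hepKO 14 members fell against the other HiAD livers, or 51.9% of those tested, and 1, Gadd45a, rose. The background was wide here too, since 17.7% of all genes fell and 15.7% rose. The median difference of the members was -0.62, against -0.00067 over all genes. The split of all genes depended on the scaling, with 30.8% lower and 7.68% higher when libraries were set to a constant sum without mitochondrial genes and 27.9% lower and 7.88% higher as deposited, while 17 and 16 members fell and 1 rose under those scalings. Leaving out both chow R2 and RAGE hepKO RA19, an alternative chosen after the data were seen, gave 14 members lower and 1 higher, and gave 8 members higher in HiAD against FFD livers and 9 lower and 1 higher with PM. With PM 6.55% of all genes then rose. In the same order the median differences of the members were -0.70, 0.36 and -0.38, against -0.016, 0.015 and 0.010 over all genes. The PM, RAGE hepKO, FFD and chow comparisons share the same 3 HiAD libraries, so that a member high in those libraries moves in all of them at once.

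**Figure D1:**
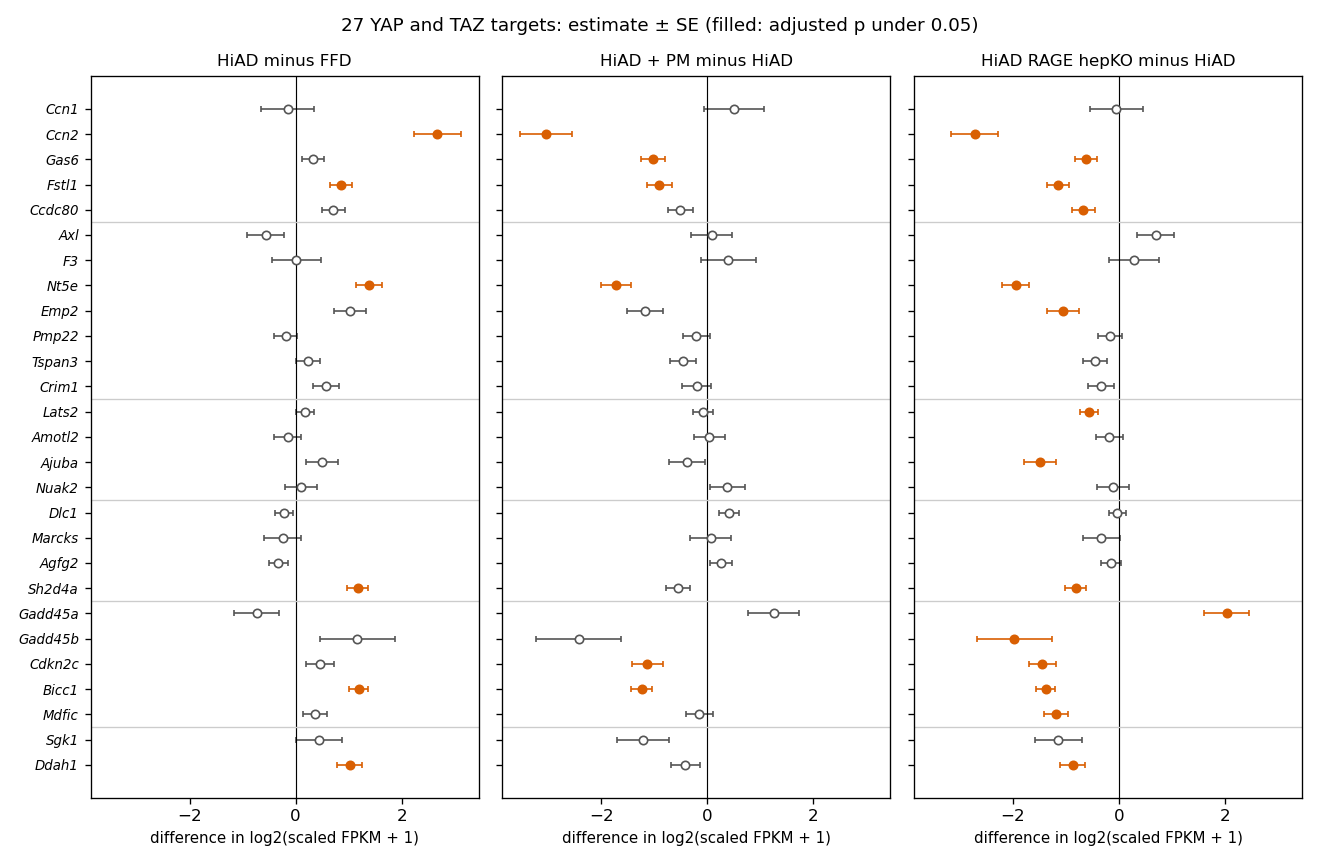
Differences in log2(scaled FPKM + 1) for the 27 tested targets, ordered by role, with bars of 1 standard error and filled points at an adjusted p under 0.05. The points of HiAD minus FFD lie mainly right of 0 and those of the other panels mainly left, with Ccn2 farthest out in all 3 panels and Gadd45a and Axl on the opposite side.

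The 3 HiAD libraries lay above the 11 others in 8 of the 27 tested members, against 4.63% of all genes tested, and below them in none, against 3.21%. The 8 were Nt5e, Bicc1, Ccdc80, Fstl1, Sh2d4a, Ddah1, Emp2 and Cdkn2c. Over all 36 it was 12, with Slit2, Fjx1, Ptpn14 and Rbms3 added, against 2.85% of the 27549 genes above 0 in any library, and below them it was again none, against 1.57%. The highest group mean was that of HiAD livers in 15 of the 27, against 23.7% of all genes tested. It was that of HiAD plus PM livers in 3 (18.9% of all genes), of the libraries labelled RAGE hepKO in 2 (33.5%), of FFD livers in 5 (11.5%) and of chow livers in 2 (12.4%).

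Among the 8 secreted and matricellular members the largest change was that of Ccn2 (chr10:24595442-24598683, GRCm38), the matricellular protein also called CTGF. Its scaled FPKM was 1.17 and 1.11 in HiAD plus PM livers, 0.762, 2.74 and 1.86 in libraries labelled RAGE hepKO, 19.4, 11.4 and 20.5 in HiAD livers, 1.06, 3.19 and 1.41 in FFD livers and 3.21, 12.8 and 3.52 in chow livers. The HiAD livers were above all FFD, PM and RAGE hepKO libraries, but chow R2 with 12.8 lay above HiAD B2. Ccn2 was 9.07 times as high in HiAD as in FFD livers by group means, with a difference of 2.68 ± 0.44 (adjusted p = 0.00592). It fell with PM (-3.04 ± 0.49, adjusted p = 0.00357) and in the libraries labelled RAGE hepKO (-2.72 ± 0.44, adjusted p = 0.00124). The PM call was lost without HiAD plus PM R19 (adjusted p = 0.0542). Against chow the difference of 1.46 ± 0.44 did not pass (adjusted p = 0.0847).

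Ccn1 (chr3:145646976-145649981), which encodes CYR61, the relative of Ccn2 most used beside it as a YAP read-out, did not pass in any of the 5 comparisons. It had 9.67 and 9.35 in HiAD plus PM livers, 7.04, 5.65 and 5.96 in libraries labelled RAGE hepKO, 6.60, 9.65 and 4.09 in HiAD livers, 6.20, 4.21 and 14.0 in FFD livers and 8.69, 1.37 and 8.14 in chow livers. Both PM livers lay above the libraries labelled RAGE hepKO and the chow livers, and the groups overlapped in all 5 comparisons. HiAD against FFD livers gave a difference of -0.15 ± 0.50 (95% interval -1.24 to 0.94, adjusted p = 0.915) and PM against HiAD livers gave 0.50 ± 0.56 (-0.72 to 1.72, adjusted p = 0.701).

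Gas6, the ligand of the receptor tyrosine kinase Axl, and Fstl1, a secreted glycoprotein, followed Ccn2 with smaller differences. Gas6 had 7.82 and 7.05 in HiAD plus PM livers, 12.0, 9.38 and 9.18 in libraries labelled RAGE hepKO, 15.1, 20.3 and 13.7 in HiAD livers, 12.8, 15.0 and 10.5 in FFD livers and 6.87, 9.03 and 10.3 in chow livers. FFD R31 with 15.0 overlapped the HiAD livers, while the PM, RAGE hepKO and chow libraries lay below all of them. Gas6 fell with PM (-1.03 ± 0.23, adjusted p = 0.0193) and in the libraries labelled RAGE hepKO (-0.62 ± 0.20, adjusted p = 0.0333), whereas HiAD against FFD gave 0.33 ± 0.20 (adjusted p = 0.465). The first of these calls was lost without any 1 of HiAD B2, HiAD plus PM R18 and HiAD plus PM R19 (adjusted p = 0.0634 to 0.201) and the second without any 1 of HiAD B1, HiAD B2, RAGE hepKO RA20 and RAGE hepKO RA21 (adjusted p = 0.0563 to 0.130). Fstl1 had 1.31 and 0.565 in HiAD plus PM livers, 0.881, 0.590 and 0.389 in libraries labelled RAGE hepKO, 1.75, 3.31 and 2.79 in HiAD livers, 1.03, 0.930 and 0.933 in FFD livers and 0.572, 0.794 and 0.665 in chow livers. No library outside the HiAD group exceeded 1.31. Fstl1 rose against the FFD by 0.86 ± 0.21 (adjusted p = 0.0418) and fell with PM (-0.90 ± 0.23, adjusted p = 0.0360) and in the libraries labelled RAGE hepKO (-1.15 ± 0.21, adjusted p = 0.00199). The FFD call was lost without any 1 of chow R1, chow R3, HiAD B2, HiAD B3, FFD R28, FFD R31 and FFD R32 (adjusted p = 0.0531 to 0.172) and the PM call without any 1 of HiAD B2, HiAD B3, HiAD plus PM R18, HiAD plus PM R19, FFD R28, FFD R31 and FFD R32 (adjusted p = 0.0516 to 0.428).

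Ccdc80, a secreted protein of the extracellular matrix, had 1.98 and 2.23 in HiAD plus PM livers, 2.09, 2.02 and 1.29 in libraries labelled RAGE hepKO, 2.81, 3.95 and 3.58 in HiAD livers, 1.74, 1.97 and 1.41 in FFD livers and 0.819, 2.16 and 1.27 in chow livers. Every HiAD liver was above every other library. It fell in the libraries labelled RAGE hepKO (-0.67 ± 0.21, adjusted p = 0.0285), a call lost without any 1 of HiAD B2, HiAD B3 and RAGE hepKO RA21 (adjusted p = 0.0726 to 0.0975), and gave 0.71 ± 0.21 against the FFD (adjusted p = 0.0995) and -0.51 ± 0.24 with PM (adjusted p = 0.252). The growth factor Tgfb2 (at most 0.118 in any library), the guidance ligand Slit2 (at most 0.270) and Fjx1 (at most 0.602) were too low to be tested. Slit2 was at 0.239, 0.139 and 0.270 in HiAD livers, against at most 0.0405 in any other library, and was listed at 0 in all chow livers. Fjx1 was at 0.352, 0.602 and 0.128 in HiAD livers, against at most 0.0627 elsewhere, and was listed at 0 in all libraries labelled RAGE hepKO.

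**Figure D2:**
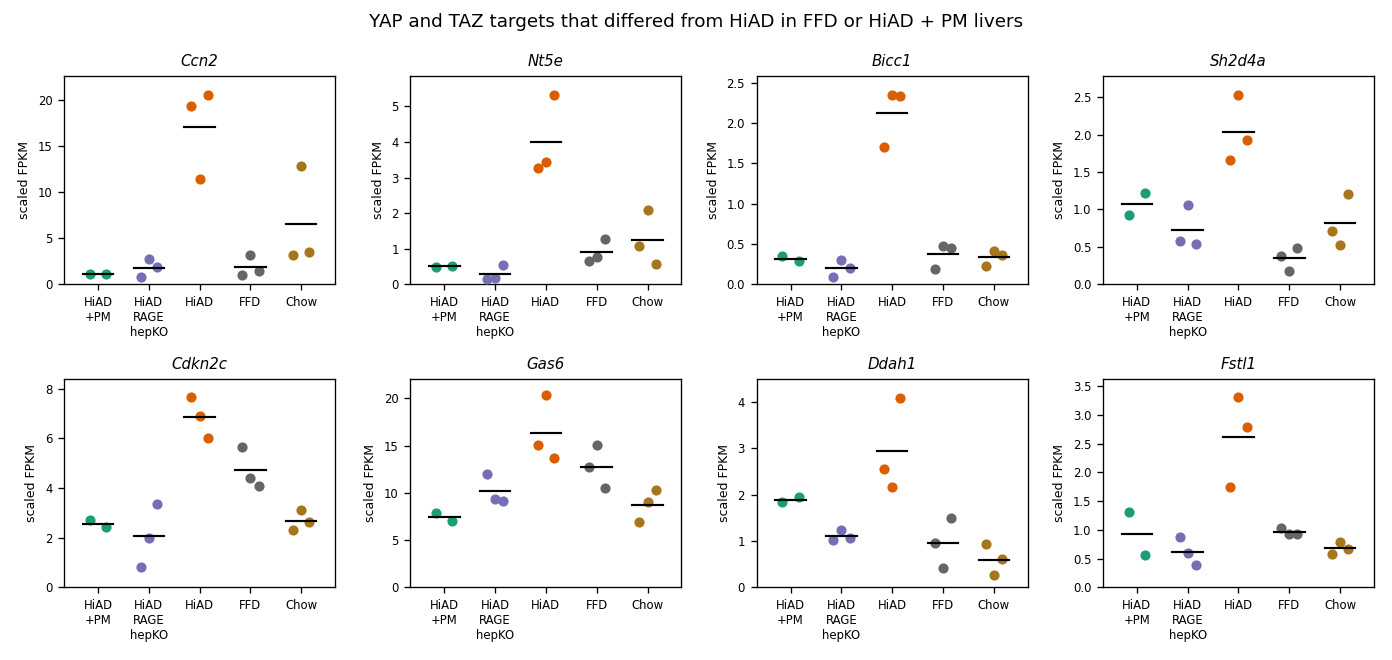
Scaled FPKM in each library (points) with the group mean (bar) for the 8 targets that passed in HiAD minus FFD or in HiAD plus PM minus HiAD. The HiAD livers lie above all others for Nt5e, Bicc1, Sh2d4a, Cdkn2c, Ddah1 and Fstl1, while chow R2 reaches 12.8 for Ccn2 and FFD R31 reaches 15.0 for Gas6.

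Of the 7 members at the cell surface, Nt5e (chr9:88327197-88372092) changed most. It encodes CD73, the enzyme that turns extracellular AMP into adenosine. It had 0.483 and 0.521 in HiAD plus PM livers, 0.151, 0.169 and 0.553 in libraries labelled RAGE hepKO, 3.28, 3.44 and 5.32 in HiAD livers, 0.662, 0.768 and 1.29 in FFD livers and 1.08, 2.10 and 0.564 in chow livers. The HiAD livers held 4.43 times the mean of the FFD livers, and no other library came within 1 scaled FPKM of them. Nt5e rose against the FFD by 1.39 ± 0.25 (adjusted p = 0.0109), and fell with PM (-1.72 ± 0.28, adjusted p = 0.00388) and in the libraries labelled RAGE hepKO (-1.95 ± 0.25, adjusted p = 0.000443). The FFD call was lost without any 1 of HiAD B3, FFD R28 and FFD R31 (adjusted p = 0.0521 to 0.0615) and the PM call without HiAD plus PM R19 (adjusted p = 0.0542).

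Emp2, a tetraspan membrane protein, had 0.972 and 0.886 in HiAD plus PM livers, 0.126, 1.87 and 1.84 in libraries labelled RAGE hepKO, 3.52, 3.86 and 2.79 in HiAD livers, 1.48, 1.19 and 0.839 in FFD livers and 1.07, 1.57 and 1.71 in chow livers. The HiAD livers were above all others. Emp2 fell in the libraries labelled RAGE hepKO (-1.06 ± 0.30, adjusted p = 0.0186), of which RA19 decided much, since without it the difference was -0.60 (adjusted p = 0.0324). That call was lost without any 1 of HiAD B1 and HiAD B2 (adjusted p = 0.0504 to 0.0596). Emp2 gave 1.02 ± 0.30 against the FFD (adjusted p = 0.0984) and -1.18 ± 0.34 with PM (adjusted p = 0.0590).

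Axl, the receptor of Gas6, passed in none of the 5 comparisons. Its difference was -0.57 ± 0.34 in HiAD against FFD livers (adjusted p = 0.458), 0.08 ± 0.39 with PM (adjusted p = 0.942) and 0.69 ± 0.34 in the libraries labelled RAGE hepKO (adjusted p = 0.140). FFD R31 with 11.6 was the highest of all libraries for Axl. F3, the coagulation initiator tissue factor, ranged from 0.310 in chow R2 to 5.53 in RAGE hepKO RA19, the libraries that stood apart. The BMP-binding membrane protein Crim1, the tetraspanin Tspan3 and the myelin protein Pmp22 ranged from 1.29 to 4.03, from 0.570 to 1.94 and from 0.797 to 2.79 over the 14 libraries and passed in none of the 5 comparisons.

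Of the 5 members that act back on the Hippo pathway 4 were tested, and none of the 4 passed in HiAD against FFD livers or with PM by limma, nor was any under an unadjusted p of 0.05 there. Amotl2 (chr9:102716672-102733418), an angiomotin relative that holds YAP in the cytoplasm, had 5.14 and 4.82 in HiAD plus PM livers, 6.60, 3.74 and 2.77 in libraries labelled RAGE hepKO, 4.41, 6.05 and 4.19 in HiAD livers, 5.91, 4.41 and 6.26 in FFD livers and 4.48, 2.73 and 4.75 in chow livers. The groups overlapped in all 5 comparisons, and the HiAD minus FFD difference was -0.15 ± 0.26 (95% interval -0.71 to 0.41, adjusted p = 0.821). With PM it was 0.04 ± 0.29 (-0.59 to 0.66, adjusted p = 0.968).

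Ajuba (chr14:54567472-54577558), a LIM protein that restrains the LATS kinases, had 4.57 and 4.24 in HiAD plus PM livers, 2.48, 1.35 and 0.908 in libraries labelled RAGE hepKO, 4.19, 7.51 and 6.82 in HiAD livers, 2.9, 4.24 and 5.03 in FFD livers and 3.49, 1.15 and 2.77 in chow livers. The libraries labelled RAGE hepKO lay below all HiAD, PM and FFD livers, and chow R2 was as low as they were. It fell in them (-1.49 ± 0.31, adjusted p = 0.00387), while the HiAD minus FFD difference of 0.50 ± 0.31 did not pass (adjusted p = 0.467). Lats2, a kinase that phosphorylates YAP, had 1.11 and 1.34 in HiAD plus PM livers, 0.862, 0.416 and 0.478 in libraries labelled RAGE hepKO, 1.20, 1.19 and 1.66 in HiAD livers, 0.935, 1.10 and 1.18 in FFD livers and 0.753, 1.22 and 0.785 in chow livers. It fell in the libraries labelled RAGE hepKO (-0.57 ± 0.17, adjusted p = 0.0227), a call lost without any 1 of HiAD B3, RAGE hepKO RA20 and RAGE hepKO RA21 (adjusted p = 0.0572 to 0.0823). The kinase Nuak2 ranged from 2.02 to 7.62 and passed nowhere.

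Ptpn14 (chr1:189728268-189876695), a phosphatase that binds YAP, was too low to be tested. It had 0.153 and 0.128 in HiAD plus PM livers, 0, 0.241 and 0.122 in libraries labelled RAGE hepKO, 0.345, 0.560 and 0.453 in HiAD livers, 0.0913, 0.0813 and 0.0991 in FFD livers and 0.0846, 0.119 and 0.151 in chow livers. The HiAD livers were above every other library, though all values were under 1. With no filter on low values Ptpn14 fell in the libraries labelled RAGE hepKO (adjusted p = 0.0223) and did not pass against the FFD (0.41, adjusted p = 0.0697).

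**Figure D3:**
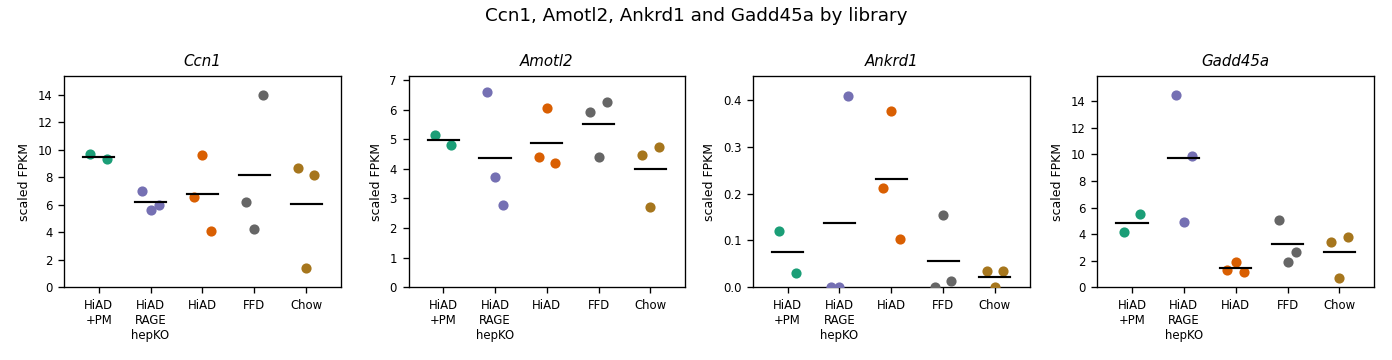
Scaled FPKM in each library (points) with the group mean (bar) for Ccn1, Amotl2, Ankrd1 and Gadd45a. Ccn1 and Amotl2 overlap between HiAD and FFD livers, Ankrd1 is at most 0.409 in any library and Gadd45a is lowest in the HiAD livers and in chow R2.

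Among the 7 members of the cytoskeleton and of trafficking only Sh2d4a (chr8:68276567-68347699), an SH2-domain adaptor, passed. It had 0.922 and 1.22 in HiAD plus PM livers, 0.583, 1.06 and 0.532 in libraries labelled RAGE hepKO, 1.66, 2.53 and 1.92 in HiAD livers, 0.381, 0.183 and 0.479 in FFD livers and 0.710, 0.523 and 1.20 in chow livers. The HiAD livers were above all others, and FFD livers were lowest. Sh2d4a was 5.87 times as high in HiAD as in FFD livers by group means and rose by 1.17 ± 0.20 (adjusted p = 0.00722). It fell in the libraries labelled RAGE hepKO (-0.82 ± 0.20, adjusted p = 0.00868) and gave -0.55 ± 0.22 with PM (adjusted p = 0.187). The GTPase-activating protein Dlc1, the actin-binding kinase substrate Marcks and Agfg2 had differences of the other sign in HiAD against FFD livers, -0.22 ± 0.17, -0.25 ± 0.35 and -0.32 ± 0.18, none of which passed (adjusted p = 0.575, 0.777 and 0.418). The exchange factor Arhgef17, the Arf regulator Asap1 and the endocytic adaptor Dab2 stayed under 1 in all libraries, at most 0.903, 0.409 and 0.493. Arhgef17 was highest in HiAD B2 and Dab2 in RAGE hepKO RA19.

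Of the 7 nuclear, growth-arrest and RNA-binding members, Bicc1 (chr10:70922832-71159700), an RNA-binding protein, had 0.347 and 0.293 in HiAD plus PM livers, 0.0894, 0.308 and 0.201 in libraries labelled RAGE hepKO, 1.70, 2.35 and 2.34 in HiAD livers, 0.188, 0.480 and 0.454 in FFD livers and 0.227, 0.412 and 0.362 in chow livers. No library outside the HiAD group exceeded 0.480. Bicc1 rose against the FFD by 1.19 ± 0.18 (adjusted p = 0.00359), and fell with PM (-1.24 ± 0.20, adjusted p = 0.00357) and in the libraries labelled RAGE hepKO (-1.38 ± 0.18, adjusted p = 0.000445). As its high HiAD values alone brought it into the test, these p-values are no independent evidence that it is high there. The PM call was lost without HiAD plus PM R19 (adjusted p = 0.0656).

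Cdkn2c, an inhibitor of cyclin-dependent kinases, had 2.73 and 2.41 in HiAD plus PM livers, 0.816, 2.01 and 3.35 in libraries labelled RAGE hepKO, 7.66, 6.92 and 6.01 in HiAD livers, 5.67, 4.39 and 4.10 in FFD livers and 2.30, 3.10 and 2.64 in chow livers. The HiAD livers were again above every other library, with FFD livers next. Cdkn2c fell with PM (-1.13 ± 0.29, adjusted p = 0.0369) and in the libraries labelled RAGE hepKO (-1.45 ± 0.26, adjusted p = 0.00200), and gave 0.46 ± 0.26 against the FFD (adjusted p = 0.413). The PM call was lost without any 1 of HiAD B1, HiAD B2, HiAD B3, HiAD plus PM R18, HiAD plus PM R19, FFD R31 and FFD R32 (adjusted p = 0.0523 to 0.281). Mdfic, an inhibitor of transcription factors, had 5.13 and 3.81 in HiAD plus PM livers, 1.14, 2.42 and 1.57 in libraries labelled RAGE hepKO, 4.83, 4.91 and 5.40 in HiAD livers, 2.99, 4.19 and 4.0 in FFD livers and 3.32, 4.68 and 2.35 in chow livers. Its only call was a fall in the libraries labelled RAGE hepKO (-1.18 ± 0.23, adjusted p = 0.00265), with 0.36 ± 0.23 against the FFD (adjusted p = 0.468) and -0.15 ± 0.25 with PM (adjusted p = 0.809).

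The stress genes Gadd45a and Gadd45b went opposite ways. Gadd45a (chr6:67035096-67037457) had 4.15 and 5.51 in HiAD plus PM livers, 14.4, 4.91 and 9.84 in libraries labelled RAGE hepKO, 1.31, 1.91 and 1.15 in HiAD livers, 5.10, 1.93 and 2.69 in FFD livers and 3.44, 0.678 and 3.79 in chow livers. Its 3 HiAD values lay below both PM values and all 3 RAGE hepKO values. Gadd45a rose in the libraries labelled RAGE hepKO (2.03 ± 0.43, adjusted p = 0.00418) and gave 1.25 ± 0.48 with PM (adjusted p = 0.157) and -0.73 ± 0.43 in HiAD against FFD livers (adjusted p = 0.436). Gadd45b had 0.995 and 0.259 in HiAD plus PM livers, 0, 1.04 and 4.01 in libraries labelled RAGE hepKO, 11, 5.70 and 6.66 in HiAD livers, 1.01, 2.08 and 7.80 in FFD livers and 2.10, 17.7 and 5.14 in chow livers. It was listed at 0 in RAGE hepKO RA19 and was highest in chow R2. It fell in the libraries labelled RAGE hepKO (-1.97 ± 0.71, adjusted p = 0.0499), a call at the threshold that was lost without any 1 of chow R3, HiAD B1, HiAD B2, HiAD B3, HiAD plus PM R18, HiAD plus PM R19, RAGE hepKO RA19, RAGE hepKO RA20 and FFD R31 (adjusted p = 0.0562 to 0.180).

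Ankrd1 (chr19:36111961-36120099), a nuclear ankyrin-repeat protein and a common YAP read-out in heart and in cultured cells, was low throughout. It had 0.120 and 0.0316 in HiAD plus PM livers, 0, 0 and 0.409 in libraries labelled RAGE hepKO, 0.213, 0.376 and 0.104 in HiAD livers, 0, 0.153 and 0.0134 in FFD livers and 0.0341, 0 and 0.0351 in chow livers. The highest value was in RAGE hepKO RA21, and the groups overlapped in every comparison but that of HiAD with chow livers. Rbms3, an RNA-binding protein, was also too low to be tested, at 0.246, 0.299 and 0.501 in HiAD livers and at most 0.212 in any other library.

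**Figure D4:**
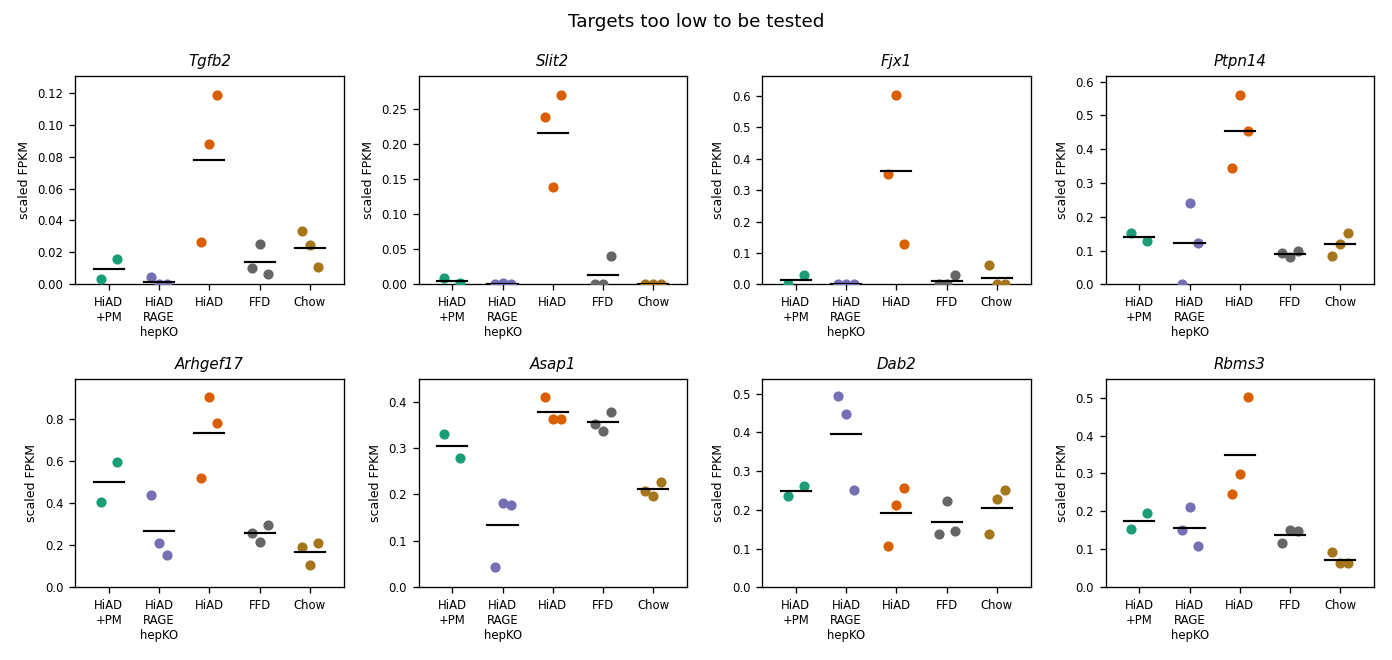
Scaled FPKM in each library (points) with the group mean (bar) for 8 of the 9 targets that were too low to be tested. All values are under 1, and the HiAD livers lie above all others for Slit2, Fjx1, Ptpn14 and Rbms3.

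Of the 2 signalling enzymes, Ddah1 (chr3:145758675-145894277), which breaks down the nitric oxide synthase inhibitor ADMA, had 1.84 and 1.94 in HiAD plus PM livers, 1.01, 1.23 and 1.06 in libraries labelled RAGE hepKO, 2.55, 2.17 and 4.09 in HiAD livers, 0.956, 0.408 and 1.5 in FFD livers and 0.927, 0.261 and 0.609 in chow livers. All HiAD livers were above every other library. Ddah1 rose against the FFD by 1.02 ± 0.24 (adjusted p = 0.0388) and fell in the libraries labelled RAGE hepKO (-0.88 ± 0.24, adjusted p = 0.0154), while PM gave -0.42 ± 0.27 (adjusted p = 0.438). The FFD call was lost without any 1 of chow R3, HiAD B1, HiAD B3, HiAD plus PM R18, HiAD plus PM R19, RAGE hepKO RA21, FFD R28 and FFD R31 (adjusted p = 0.0501 to 0.183), and the RAGE hepKO call without HiAD B3 (adjusted p = 0.0653). The kinase Sgk1 had 0.442 and 0.573 in HiAD plus PM livers and 0.374, 0.902 and 0.493 in libraries labelled RAGE hepKO. It was at 2.48, 2.52 and 2.42 in HiAD livers and at 1.44, 2.42 and 0.987 in FFD livers, and reached 6.69 in chow R2. Sgk1 passed in no comparison. It gave -1.21 ± 0.49 with PM (adjusted p = 0.188) and -1.14 ± 0.44 in the libraries labelled RAGE hepKO (adjusted p = 0.0623).

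Against regular chow, 7 members rose in HiAD livers and none fell, or 25.9% of those tested, against 2.81% of all genes that rose and 1.82% that fell (6.75% and 1.49% at a constant sum without mitochondrial genes, 4.30% and 1.47% as deposited). They were Bicc1 (1.23 ± 0.18, adjusted p = 0.00240), Ddah1 (1.29 ± 0.24, adjusted p = 0.00945), Fstl1, Nt5e, Ccdc80, Cdkn2c and Gas6. At an unadjusted p under 0.05 the counts were 11 higher and 0 lower, and 2422 of the 12110 genes were under it in either direction. Bicc1, Ddah1, Fstl1 and Nt5e thus passed against both diets, Ccn2 and Sh2d4a against the FFD alone, and the difference between those differences was not tested. Against chow Sh2d4a gave 0.75 ± 0.20, just short of the threshold (adjusted p = 0.0505), with every HiAD liver above every chow liver. The count was 3 without chow R1 (1.79% of all genes rose), 4 without HiAD B2 and 2 without HiAD B3. In these runs the median difference of the members was 0.64, 0.49 and 0.51, against 0.45 with every library. Among these calls, those of Ccdc80, Cdkn2c and Gas6 were each lost without any 1 of 6 or 7 libraries, with adjusted p up to 0.106, 0.0996 and 0.127. Nt5e was lost without any 1 of chow R1, chow R3 and HiAD B3 (adjusted p = 0.0576 to 0.0994), and Fstl1 without HiAD B3 (adjusted p = 0.0535).

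FFD against chow livers, a comparison that holds no HiAD library, gave no member by limma in either direction, against 0.00826% of all genes that rose and 0.0578% that fell. At an unadjusted p under 0.05, Gas6, Axl, Dlc1, Marcks and Cdkn2c were higher and Ccn2 was lower in FFD livers, or 6 members of 27, and 1218 of the 12110 genes were under it. With sample quality weights in limma 2 members rose, where 1.68% of all genes rose and 2.74% fell. The median difference of the members was 0.23, against -0.017 over all genes. Axl gave 0.95 ± 0.34 (adjusted p = 0.364) and Marcks 0.91 ± 0.35 (adjusted p = 0.405).

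A pair of further written lists set the members beside their pathway. Of 32 other genes of YAP signatures 15 were tested. In the libraries labelled RAGE hepKO, Tk1, the thymidine kinase of dividing cells, rose (1.96 ± 0.37, adjusted p = 0.00246), and Lhfp (-1.25 ± 0.22, adjusted p = 0.00177) and the transglutaminase Tgm2 (-0.86 ± 0.22, adjusted p = 0.0114) fell. Both also rose in HiAD against chow livers, Lhfp by 1.0 ± 0.22 (adjusted p = 0.0219) and Tgm2 by 0.86 ± 0.22 (adjusted p = 0.0448). The median difference of these 15 was 0.069 in HiAD against FFD livers, 0.30 against chow livers, -0.16 with PM and -0.099 in the libraries labelled RAGE hepKO. Of 20 Hippo pathway components 15 were tested and none passed in HiAD against FFD livers by limma, with 4 under an unadjusted p of 0.05. In that comparison 1964 of all 12110 genes were under it. Wwtr1, the gene of TAZ, had 4.10 and 3.46 in HiAD plus PM livers, 7.22, 3.14 and 2.96 in libraries labelled RAGE hepKO, 7.57, 9.69 and 9.78 in HiAD livers, 4.49, 4.73 and 5.33 in FFD livers and 4.65, 5.84 and 4.75 in chow livers. Its HiAD livers were above all others, and it fell with PM (-1.06 ± 0.28, adjusted p = 0.0385) and in the libraries labelled RAGE hepKO (-0.96 ± 0.25, adjusted p = 0.0112). Against the FFD it gave 0.77 ± 0.25 (adjusted p = 0.126). Yap1 had 13.1 and 13.7 in HiAD plus PM livers, 6.68, 4.64 and 6.12 in libraries labelled RAGE hepKO, 12.3, 12.3 and 13.2 in HiAD livers, 10.4, 11.3 and 12.6 in FFD livers and 9.13, 10.7 and 9.07 in chow livers. HiAD and PM livers did not differ beyond their spread in Yap1 (0.08 ± 0.18, adjusted p = 0.858), while it fell in the libraries labelled RAGE hepKO (-1.01 ± 0.16, adjusted p = 0.000946), where 9 of the 15 components fell and none rose, against 17.7% and 15.7% of all genes.

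Markers of other liver cells moved in the same libraries. In bulk liver, fewer cells of a type and less RNA per cell cannot be told apart. Of 10 bile duct cell (cholangiocyte) markers 5 were tested, of which 3 (Spp1, Epcam and Cldn7) rose in HiAD against FFD livers and the same 3 fell with PM. The 10 together summed to 17.8 to 25.1 in HiAD plus PM livers, 21.5 to 38.0 in the libraries labelled RAGE hepKO, 95.2 to 152 in HiAD livers, 23.3 to 32.5 in FFD livers and 32.3 to 34.4 in chow livers. Without Spp1, the most abundant, the sum was 4.66 to 4.85 in HiAD plus PM livers, 3.22 to 5.41 in the libraries labelled RAGE hepKO, 10.6 to 14.7 in HiAD livers, 3.72 to 5.08 in FFD livers and 4.94 to 5.14 in chow livers. The keratins that define these cells were low throughout, with Krt19 at most 0.825 and Krt7 at most 0.359.

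Of 14 stellate cell and fibroblast markers 13 were tested, and 2, Pdgfra and Dcn, rose against the FFD. The 14 together summed to 72.0 to 77.4 in HiAD plus PM livers, 90.2 to 146 in the libraries labelled RAGE hepKO, 99.8 to 123 in HiAD livers, 75.2 to 91.1 in FFD livers and 64.8 to 74.2 in chow livers, so that the libraries labelled RAGE hepKO overlapped the HiAD livers and reached above them. The most abundant, Ecm1, had 103, 47.6 and 109 in the libraries labelled RAGE hepKO and 48.5, 41.4 and 24.0 in HiAD livers. Without Ecm1 the list summed to 30.3 to 34.1 in HiAD plus PM livers, 35.7 to 42.6 in the libraries labelled RAGE hepKO, 57.5 to 82.0 in HiAD livers, 34.0 to 37.0 in FFD livers and 20.8 to 39.5 in chow livers, and no HiAD liver overlapped another group in that sum.

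The sum of 10 macrophage markers was lowest in HiAD livers, with chow livers next to them, at 153 to 185 in HiAD plus PM livers, 117 to 285 in the libraries labelled RAGE hepKO, 54.5 to 70.0 in HiAD livers, 136 to 573 in FFD livers and 70.3 to 152 in chow livers. Not every marker followed the sum. Trem2 had 0.328, 1.06 and 0.516 in HiAD livers and at most 0.252 in any other library. Against chow 2 of the 9 tested markers had a difference above 0, and against the FFD 0 had. Of the 9 tested macrophage markers, 3 fell in HiAD against FFD livers. By limma none passed in HiAD against chow livers, with 2 under an unadjusted p of 0.05, where 2422 of all 12110 genes were. By limma none of 10 tested endothelial markers, of 3 tested lymphocyte and neutrophil markers and of 9 tested immediate early genes passed in HiAD against FFD livers, with 2, 1 and 0 of them under an unadjusted p of 0.05, and all 5 mesothelial markers were too low to be tested. The sum of 12 endothelial markers was 33.7 to 41.4 in HiAD plus PM livers, 72.2 to 76.9 in the libraries labelled RAGE hepKO and 47.3 to 67.2 in HiAD livers. It was 37.8 to 55.5 in FFD livers and 52.4 to 63.3 in chow livers. In the libraries labelled RAGE hepKO 3 of the 10 tested endothelial markers rose and 1 fell. There 4 of the 9 immediate early genes fell and none rose, against 17.7% and 15.7% of all genes. Of the 10 hepatocyte markers 1, Serpina1c, fell against the FFD. The 36 targets together summed to 90.1 to 93.0 in HiAD plus PM livers, 76.7 to 87.7 in the libraries labelled RAGE hepKO, 130.0 to 144 in HiAD livers, 90.7 to 112 in FFD livers and 75.9 to 93.6 in chow livers, and without Ccn2 to 111 to 133 in HiAD livers, against at most 109 in any other library. The part that these cell types or the mitochondrial share have in the targets' levels was not tested.

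**Figure D5:**
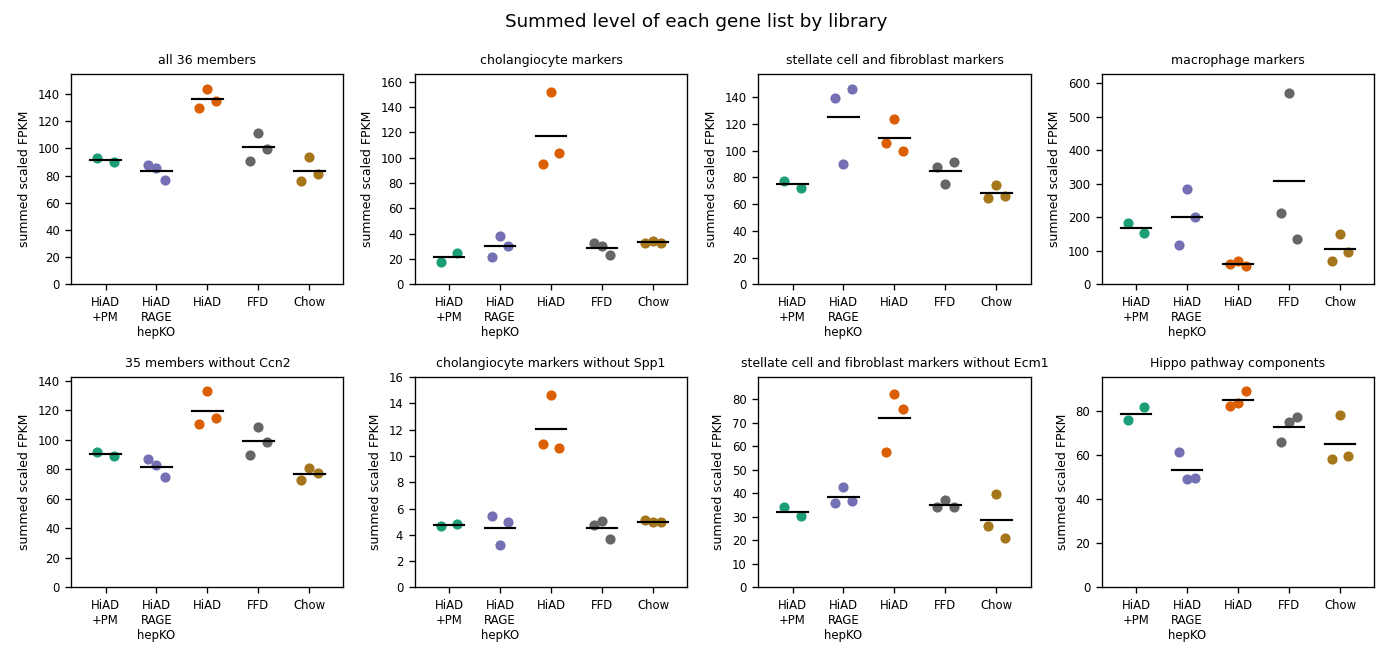
Summed scaled FPKM of gene lists in each library (points) with the group mean (bar), 3 of them also without their most abundant or most changed gene. The targets and the bile duct cell markers are highest in the 3 HiAD livers with and without Ccn2 and Spp1, the stellate cell and fibroblast markers are so only without Ecm1, and the macrophage sum is lowest in HiAD livers with chow livers close above.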

How the data were processed

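Liver RNA of 14 libraries was analysed from 1 deposited table, with 0 columns left unmapped. Per the labels and the paper's methods, the authors prepared libraries with a SMARTER mRNA kit, aligned paired-end reads to the GRCm38 genome (GENCODE M18 genes, Dropseq tools), made a UMI-filtered count matrix and tested it with limma and voom. The table deposited by the authors is named as raw counts, but its values are not whole numbers, and the sum of value times exon length (in kilobases) lay between 902428 and 994688 for every library, as it would for FPKM. They were therefore analysed as FPKM, a unit inferred from the values. How FPKM were made is not stated there. Read depth is unknown and precision rests on the spread between libraries.

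Of 55583 entries, 27 named by a date and 129 repeats were removed. Libraries were scaled by a mean of log ratios trimmed by 30% at each end over 6522 genes. The 12110 genes that reached a scaled FPKM of 1 in 2 or more libraries were tested on log2(scaled FPKM + 1) in limma with trend and robust estimates, 5 group means and 5 contrasts, and Benjamini-Hochberg adjustment over all genes. The fit was tested on simulated data. The members, gene lists and rules were chosen with earlier results of these data known. All 36 members are accounted for, with values in each library for Ccn1, Ccn2, Ankrd1, Amotl2 and each member that passed against the FFD, with PM or in the libraries labelled RAGE hepKO. They are given by role and not in the order of their change. Other lists (YAP signature genes, Hippo components, immediate early genes and markers of 7 kinds of cell) give counts and sums, with at most 3 genes named by smallest p, beside Yap1, Krt7, Krt19 and Trem2, named after their values were seen. The results of 1 further signature gene are not reported here. Promoter windows are from RefSeq, and gene positions and exon lengths from GENCODE M21 (GRCm38).

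Chow, FFD and PM libraries carry the letter R, HiAD libraries alone carry B and those labelled RAGE hepKO alone carry RA. The labels do not say what the letters mean. A difference tied to the letter B could not be told apart from the HiAD group. Chow and HiAD libraries share the numbers 1 to 3 under different letters. No label ties mice of the same number to each other, so no pairing was used. Alternatives were other pseudocounts, filters, scalings and weights, fewer groups, each library left out and a block on the number. Software was limma 3.58.1 in R 4.3.3 (read in with the package data.table, version 1.17.8) and, for sequences and plots, pandas 2.3.3, numpy 2.4.6 and matplotlib 3.10.9 in Python 3.11.15.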

Additional observations from a re-analysis of the deposited data

How the results depend on the processing

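No difference of a member that passed changed its sign under any of 27 alternatives, and 12 of the 34 calls on a member passed under all of those that could be run. Of these, the calls against the FFD were those of Ccn2, Bicc1 and Sh2d4a. All the rest were in the libraries labelled RAGE hepKO, and no call with PM or against chow was among them. The count of members higher in HiAD against FFD livers, 6, was 3 with a filter on a mean scaled FPKM of at least 1 (1.57% of all genes rose) and 3 to 7 on leaving out each library. Against chow the 7 higher members became 11 at a constant sum without mitochondrial genes, 12 with sample quality weights, 2 with the compared groups alone (where 6.75%, 10.5% and 1.05% of all genes rose, against 2.81%) and 2 to 10 on leaving out each library. With PM the 6 lower members became 11 with sample quality weights (12.7% of all genes fell, against 3.14%) and 0 to 8 on leaving out each library. The 0 members higher with PM became 2 with sample quality weights, 1 with the compared groups alone and 1 without both chow R2 and RAGE hepKO RA19, which was chosen after the data were seen, while 13.0%, 7.46% and 6.55% of all genes rose, against 3.31%. In the libraries labelled RAGE hepKO the 14 lower members were 10 to 15 on leaving out each library. Between FFD and chow livers the 0 higher members became 2 with sample quality weights (1.68% of all genes rose). The cause of these changes was not tested. Some scalings moved the median of all genes by over 0.1. For the libraries labelled RAGE hepKO it was -0.26 as deposited and -0.30 at a constant sum without mitochondrial genes, where the members had -0.92 and -0.96. For HiAD minus chow it was 0.14 at that sum, with members at 0.62, and for FFD minus chow 0.13 as deposited, with members at 0.34. Leaving out 1 PM library leaves the other alone, which is then assumed to vary like the other groups. Without a filter all 36 members were tested. Slit2 then passed in all 4 comparisons with HiAD livers, Arhgef17 against chow, and Tgfb2, Fjx1, Ptpn14, Arhgef17 and Asap1 fell in the libraries labelled RAGE hepKO. The calls lost were Fstl1 and Ddah1 against the FFD, Gas6, Ccdc80, Nt5e and Cdkn2c against chow, Fstl1 and Cdkn2c with PM, and Gas6, Ccdc80, Emp2 and Gadd45b in the libraries labelled RAGE hepKO (adjusted p = 0.0506 to 0.130).

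With the replicate number as a block, HiAD against chow livers gave 0 higher members in place of 7, and 0.267% of all genes rose. The deviations of libraries with the same number correlated at 0.036, -0.087 and -0.054, no closer than those with different numbers (-0.14 to 0.14). So few values cannot show whether mice of the same number shared a cage, a litter or a day of processing.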
